A study of Mus musculus with 2 samples.

Results

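The 10 genes described here encode receptors, regulators and effectors of cell death and survival in tumour necrosis factor (TNF) signalling. These are the receptors Tnfrsf1a and Tnfrsf1b, the adaptor Tradd, the kinases Ripk1 and Ripk3, and the necroptosis effector Mlkl. The others are the protease Casp8, its regulator Cflar, and the ubiquitin ligases Birc2 and Birc3. All 10 were taken by symbol from the 55536 genes of the deposited tables, and each symbol matched 1 gene in both libraries. The libraries hold ribosome-depleted RNA of the nuclear fraction, called nucleoplasmic in the labels, from C57BL/6J mouse bone-marrow-derived macrophages. These are primary cells grown from marrow. Per the labels, the cells received 100 ng/ml Lipid A for 12 h, went through a washout of 12 h, and received 100 ng/ml Lipid A again for 10 min. The receptor TLR4 senses Lipid A, the membrane anchor of lipopolysaccharide from bacteria. Both libraries, biological replicates 1 and 2, belong to this 1 group and carry 1 donor identifier. The labels do not say whether they came from separate animals or cultures, so their spread may be partly technical. Sex and age were not collected. Replicate 1 started from 1 µg of material and replicate 2 from 500 ng, per the labels. Untreated cells were not analysed here, so no level below is a response to Lipid A.

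When TNF binds its receptor Tnfrsf1a, Tradd and Ripk1 are recruited to the receptor tail, and the ligases encoded by Birc2 and Birc3 attach ubiquitin chains to Ripk1, which supports NF-κB signalling and survival. When this control fails, Ripk1 can join Casp8 in a complex that starts apoptosis. Casp8 paired with the long product of Cflar, a protease-dead relative, cuts Ripk1 and Ripk3 and holds necroptosis back. When Casp8 is inactive, Ripk3 phosphorylates Mlkl, which permeabilises the plasma membrane, and this lytic death is called necroptosis. In macrophages the same proteins also act downstream of TLR4.

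Expected counts (estimated read numbers) on genes totalled 24444219 in replicate 1 and 18051097 in replicate 2, and the 10 genes together held 0.229% and 0.184% of them. All 10 macrophage markers checked were detected, with Lyz2 (lysozyme) at 961 ± 10.8 TPM (SD, n = 2) and Adgre1 (F4/80) at 395 ± 67.1 TPM. None of 35 markers of B, T and NK, dendritic, endothelial and epithelial, erythroid, fibroblast, mast cells and neutrophils was detected, and 17 of them were at 0 in both libraries. Their TPM summed to 2.67 in replicate 1 and 2.32 in replicate 2, against 2686 and 2534 for the macrophage markers. Levels are the authors' TPM, a count divided by effective transcript length and scaled to the same total over all targets in every table. Detection required, in each library, 1 TPM or more and 10 expected counts or more. By this rule all 10 genes were detected, against 42.9% of 22028 protein-coding genes. Their median was 24.1 TPM, taken from the means of both replicates, beside 7.99 TPM for detected protein-coding genes. In bulk RNA fewer cells with a transcript and less transcript per cell cannot be told apart.

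Both receptors were present, and Tnfrsf1b was the more abundant. Tnfrsf1b (ENSMUSG00000028599.10, mm10 chromosome 4, 145213463 to 145246870, minus strand), the receptor that lacks a death domain, stood at 156 TPM in replicate 1 and 124 TPM in replicate 2. Its mean of 139.7 ± 22.3 TPM (SD, n = 2) was next to that of Cflar at the top of the 10 genes, above 98.4% of detected protein-coding genes. Tnfrsf1a (ENSMUSG00000030341.17, chromosome 6, 125349362 to 125362484, plus strand), the death-domain receptor, stood at 26.9 and 23.0 TPM, a mean of 24.9 ± 2.76. The TPM of Tnfrsf1b was 5.78 times that of Tnfrsf1a in replicate 1 and 5.39 times in replicate 2, and the replicate values of the receptors did not overlap. A second deposited transcript table per library, called the other quantification here, gave folds of 4.82 and 4.30. Nearly all Tnfrsf1b signal was on 1 transcript, Tnfrsf1b-201, which encodes 474 codons and held 99.7% ± 0.212 of the gene TPM. For Tnfrsf1a the 454-codon transcript Tnfrsf1a-201 held 94.5% in replicate 1 and 88.8% in replicate 2.

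Tradd, the adaptor that links the death domain of Tnfrsf1a to Ripk1, was among the lowest of the 10 genes. Tradd (ENSMUSG00000031887.13, chromosome 8, 105258286 to 105264609, minus strand) stood at 5.40 TPM in replicate 1 and 3.42 TPM in replicate 2, from 289 and 131 expected counts. Its mean of 4.41 ± 1.40 TPM (SD, n = 2) lay below the median of detected protein-coding genes.

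The kinases differed in level. Ripk1 (ENSMUSG00000021408.15, chromosome 13, 34002363 to 34037147, plus strand), the kinase that acts in both survival and death complexes, stood at 16.3 TPM in replicate 1 and 20.2 TPM in replicate 2, a mean of 18.2 ± 2.75 (SD, n = 2). Ripk3 (ENSMUSG00000022221.14, chromosome 14, 55784995 to 55788865, minus strand), the kinase specific to necroptosis, had the lowest mean of the 10 genes. Its values were 3.11 and 3.85 TPM, from 200 and 135 expected counts, with a mean of 3.48 ± 0.523. Ripk1 therefore exceeded Ripk3 5.24 times in both libraries, and 5.36 and 6.65 times in the other quantification. Ripk3 was higher than only 22.2% of detected protein-coding genes.

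Mlkl, the pseudokinase that Ripk3 phosphorylates, stood well above Ripk3. Mlkl (ENSMUSG00000012519.14, chromosome 8, 111311797 to 111338177, minus strand) was at 23.4 TPM in replicate 1 and 23.0 TPM in replicate 2, a mean of 23.2 ± 0.325 (SD, n = 2). This was 7.53 times the TPM of Ripk3 in replicate 1 and 5.96 times in replicate 2. The 2 complete coding transcripts of Mlkl part at a splice donor. The longer, Mlkl-201, keeps 24 more coding bases (chromosome 8, 111314941 to 111314964) and encodes 472 codons, whereas Mlkl-202 encodes 464. Both junctions are printed 5′ to 3′ from the GENCODE M21 transcripts because they tell the main Mlkl coding transcripts apart, with the bases of the longer form in capitals.
Mlkl-201: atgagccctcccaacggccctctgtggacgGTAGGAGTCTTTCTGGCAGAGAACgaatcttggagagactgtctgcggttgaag
Mlkl-202: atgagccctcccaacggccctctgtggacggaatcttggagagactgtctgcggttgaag

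The 464-codon transcript carried most Mlkl signal, 84.2% of the gene TPM in replicate 1 and 61.0% in replicate 2. The 472-codon transcript held 7.77% and 10.5%. Its counts were 129 and 120, with an SD from read assignment alone of 34.1 and 38.7. Of the counts of the gene, Mlkl-202 held 89.4% in replicate 1 and 77.9% in replicate 2. Mlkl-204, a coding transcript of 593 bases incomplete in the annotation, held 0.71% and 17.9% of the gene TPM. It rested on 2.5 and 42.4 counts, with an assignment SD of 12.9 and 14.6. In the other quantification the shares were 53.8% and 42.6% for Mlkl-202 and 12.9% and 18.9% for Mlkl-201. The 464-codon form was thus the higher of the pair in both libraries and both quantifications, by folds of 2.25 to 10.8.

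**Figure D1:**
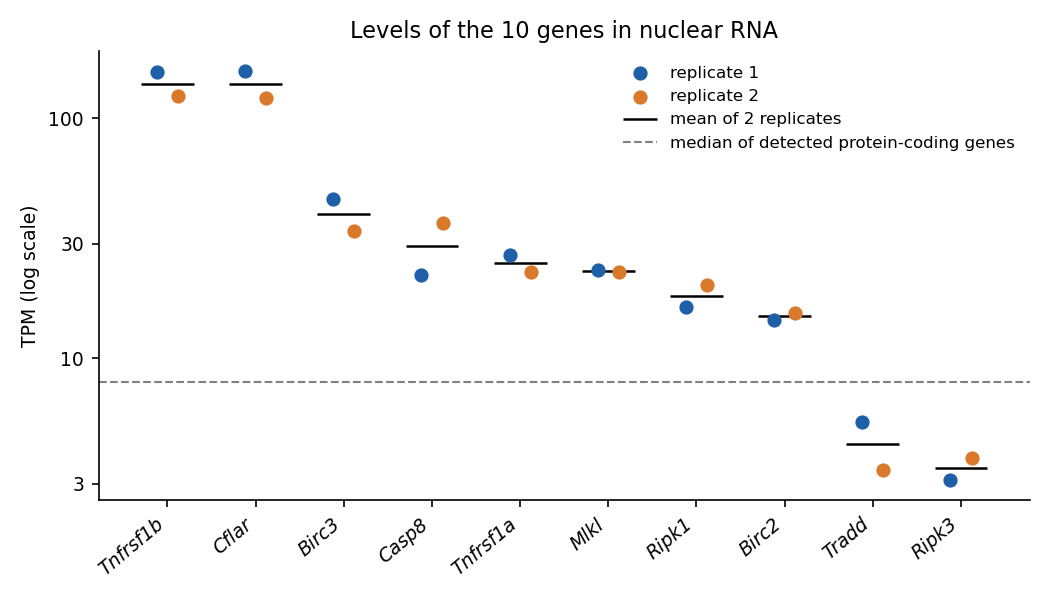
TPM (log scale) of the 10 genes in replicate 1 and replicate 2 (points) with their mean (black lines), ordered by mean, and the median of detected protein-coding genes (dashed line at 7.99 TPM). Tnfrsf1b and Cflar stand apart at 122 to 157 TPM, and Tradd and Ripk3 lie below the dashed line.

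Casp8 and Cflar are neighbours on chromosome 1, on the same strand and 36490 bases apart. Casp8 (ENSMUSG00000026029.14, 58795374 to 58847503), the initiator protease, stood at 22.1 TPM in replicate 1 and 36.6 TPM in replicate 2, a mean of 29.4 ± 10.2 (SD, n = 2). Cflar (ENSMUSG00000026031.15, 58711508 to 58758884), which encodes c-FLIP, stood at 157 and 122 TPM, a mean of 139.6 ± 25.05. Replicate 2 was thus the higher for Casp8 and the lower for its neighbour. Cflar exceeded Casp8 7.11 times in replicate 1 and 3.33 times in replicate 2, and 6.08 and 3.38 times in the other quantification. Their replicate values did not overlap.

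Cflar gives a long protein of 481 codons in Cflar-205 and a short one of 215 codons in Cflar-204, which keeps the death effector domains and lacks the protease-like part. The forms part after base 58732326 of chromosome 1, where the short form reads on past the splice donor and reaches a stop after 11 more codons. The sequences are printed 5′ to 3′ with the bases after the parting in capitals. The capitals of the short form end with its stop codon.
Cflar-205: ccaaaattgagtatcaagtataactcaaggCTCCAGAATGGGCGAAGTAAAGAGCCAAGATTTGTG
Cflar-204: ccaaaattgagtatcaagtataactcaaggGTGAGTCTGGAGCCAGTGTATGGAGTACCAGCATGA

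The 3 transcripts of the long form, Cflar-201, Cflar-202 and Cflar-205, held 41.3% of the Cflar TPM in replicate 1 and 43.0% in replicate 2, and the short form held 10.6% and 12.7%. Noncoding processed transcripts held 34.7% and 28.9% of the Cflar TPM but only 5.62% and 4.76% of its counts. Complete coding transcripts held 81.0% of these counts in replicate 1 and 80.7% in replicate 2. The long form exceeded the short one 3.88 and 3.40 times by TPM, and 3.45 and 3.20 times in the other quantification. The short form rested on 1191 and 766 expected counts, with an assignment SD of 18.1 and 12.8. The end of its last exon lies in an intron of the long form, so reads of unspliced RNA there also count toward it. The balance of the forms was close between libraries, whereas the gene level differed.

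All 4 annotated Casp8 transcripts are complete coding transcripts, and they begin at 2 places 7128 bases apart. Casp8-201 and Casp8-204 begin upstream, and Casp8-202 and Casp8-203 downstream. Casp8-201 and Casp8-202 encode the same 480 codons. The grouping by start was made after the values were seen. Upstream transcripts stood at 7.75 TPM in replicate 1 and 5.68 TPM in replicate 2. Downstream transcripts stood at 14.4 and 30.9 TPM, which was 65.0% and 84.5% of the gene TPM. The other quantification gave downstream shares of 53.8% and 74.1%. Between the libraries, the downstream transcripts had a log2 ratio of normalised counts of 0.87 in replicate 2 over replicate 1 (95% counting interval 0.75 to 0.99) and the upstream ones −0.67 (−0.86 to −0.49). The other quantification gave 0.65 and −0.56. The higher Casp8 level of replicate 2 was therefore carried by the downstream transcripts in both quantifications. Casp8-201 also ends further downstream than Casp8-202, so the assignment of reads draws on both ends. Within the start groups the quantifications divided reads differently: Casp8-204 held 1.55% of the gene TPM in replicate 1 in the first and 25.4% in the other.

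The downstream start lies at the promoter that RefSeq lists for Casp8. RefSeq promoters on GRCm38.p6, which has the coordinates of mm10, were matched for 9 of the 10 genes, all except Tradd, with 11 entries in all. The 250 bases before this start are printed 5′ to 3′ (chr1:58802252-58802501, plus strand) because its transcripts carried the higher Casp8 level of replicate 2. Capitals mark matches to the core bound by interferon regulatory factors, AANNGAAA on either strand, where N is any base.
Casp8 promoter: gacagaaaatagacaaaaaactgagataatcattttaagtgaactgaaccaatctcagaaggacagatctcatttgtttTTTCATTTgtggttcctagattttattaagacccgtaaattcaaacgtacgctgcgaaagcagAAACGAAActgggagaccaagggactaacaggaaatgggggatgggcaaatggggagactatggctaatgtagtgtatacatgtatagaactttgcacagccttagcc

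In windows of 300 bases, from 250 before a start to 50 after it, this core occurred in 23.9% of 32851 RefSeq promoters and in promoters of 6 members: Birc2, Birc3, Casp8, Cflar, Ripk1 and Tnfrsf1b. The longer interferon-stimulated response element, GAAA, any 2 bases and GAAA again, occurred in 3.44% of all promoters and in those of Cflar, Ripk1 and Tnfrsf1b. Every such element also holds the core, so these matches overlap. The NF-κB pattern, GGG and CC with any 5 bases between them, occurred in 50.8% of all promoters and in those of 5 members, Birc3, Cflar, Ripk1, Tnfrsf1a and Tnfrsf1b. The gamma-activated site TTCNNNGAA occurred in 8.30% of all promoters and in those of Ripk1, Tnfrsf1a and Tnfrsf1b. The Ripk1 window with these matches (34002624 to 34002923) lies downstream of the Ripk1-201 start at 34002363 and holds that of Ripk1-203. The Birc2 window (7836757 to 7837056, minus strand) lies downstream of the Birc2-204 start at 7837057. Matches in these 2 windows are therefore not upstream of Ripk1-201 or Birc2-204, the highest coding transcripts of the genes. All motifs were searched on both strands, and a match describes letters and shows no binding.

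**Figure D2:**
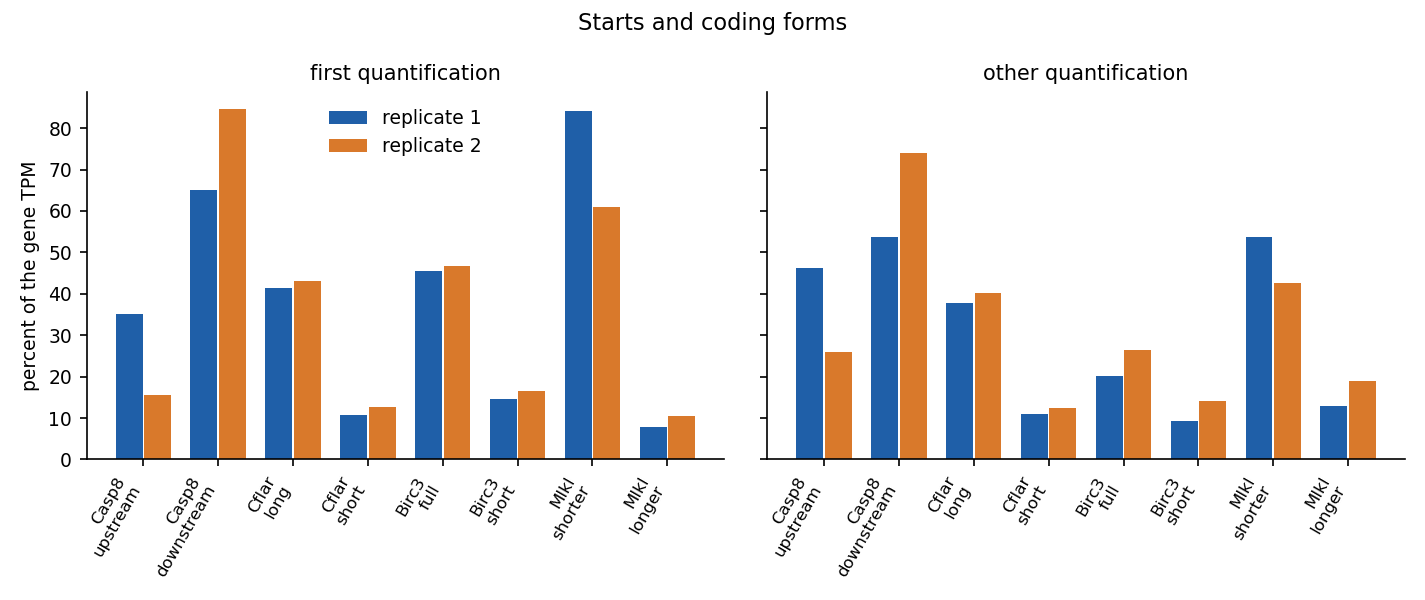
Percent of the gene TPM on starts of Casp8 and coding forms of Cflar, Birc3 and Mlkl in replicate 1 and replicate 2 (bars), for the first quantification (left panel) and the other quantification (right panel). The downstream Casp8 start holds more in replicate 2 in both panels (65.0% and 84.5% on the left, 53.8% and 74.1% on the right), and the long Cflar form holds 37.7% to 43.0%.

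The ubiquitin ligases Birc2 (cIAP1) and Birc3 (cIAP2) lie in tandem on chromosome 9, both on the minus strand and 11635 bases apart. Birc3 (ENSMUSG00000032000.17, 7848699 to 7873186), known as an NF-κB target gene, stood at 45.9 TPM in replicate 1 and 33.9 TPM in replicate 2, a mean of 39.9 ± 8.49 (SD, n = 2). Birc2 (ENSMUSG00000057367.12, 7818227 to 7837064) stood at 14.4 and 15.5 TPM, a mean of 14.9 ± 0.750. Birc3 exceeded Birc2 3.19 times in replicate 1 and 2.19 times in replicate 2, without overlap of their values, and 5.84 and 3.06 times in the other quantification.

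Birc3 also has a short coding transcript that reads past a splice donor. Birc3-201 encodes 602 codons, including the C-terminal RING that makes the protein a ligase, whereas Birc3-202 leaves it after base 7857390 of chromosome 9 and stops after 15 more codons, at 376 in all. The capitals again mark the bases after the parting.
Birc3-201: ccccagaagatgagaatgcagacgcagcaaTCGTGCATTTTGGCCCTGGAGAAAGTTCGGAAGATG
Birc3-202: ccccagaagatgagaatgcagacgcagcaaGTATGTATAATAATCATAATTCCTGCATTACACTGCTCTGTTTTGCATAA

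The full form held 45.6% of the Birc3 TPM in replicate 1 and 46.8% in replicate 2, and the short form 14.7% and 16.5%. In the other quantification the full form held only 20.3% and 26.4% and the short form 9.35% and 14.1%. Noncoding processed transcripts held 62.3% and 48.0% of the Birc3 TPM there, against 36.4% and 32.1% in the first. The full form exceeded the short one 3.11 and 2.84 times, and 2.17 and 1.87 times in the other quantification. Here too the end of the last exon of the short form is intronic for the full one. The short noncoding transcripts Birc3-205 and Birc3-206, of 355 and 360 bases, held 17.3% and 19.02% of the TPM in replicate 1 on only 45 and 51 expected counts. Of the counts of the gene, complete coding transcripts held 95.7% in replicate 1 and 96.2% in replicate 2. For Birc2 the quantifications disagreed on its starts. Birc2-204 (upstream) exceeded Birc2-202 (downstream), which encodes the same 612 codons, 1.40 and 3.65 times in the first and 4.90 and 2.61 times in the other, and the assignment SD of Birc2-202 was 94.3 counts on 521 in replicate 1. No difference between libraries in these starts is therefore given.

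Ordered by mean TPM, the genes ran Tnfrsf1b, Cflar, Birc3, Casp8, Tnfrsf1a, Mlkl, Ripk1, Birc2, Tradd and Ripk3. Of the 9 neighbouring pairs in this order, 4 had replicate values that did not overlap: Cflar and Birc3, Mlkl and Ripk1, Ripk1 and Birc2, and Birc2 and Tradd. The other 5 pairs overlapped. In the other quantification Cflar stood above Tnfrsf1b in both libraries (65.2 and 70.5 against 54.9 and 63.7 TPM), Mlkl had a higher mean than Tnfrsf1a, and the values of Ripk1 (7.47 and 12.1) and Birc2 (6.26 and 10.01) overlapped. Also in that quantification, Birc3 (36.6 and 30.6) did not overlap Casp8 (10.7 and 20.9). Nor did Tradd (3.20 and 2.82) overlap Ripk3 (1.39 and 1.83) there. With 2 libraries these are descriptions of the samples, without a test.

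By normalised counts most of the 10 genes were lower in replicate 2, while Casp8 was higher. Ratios were taken as log2 of normalised counts, replicate 2 over replicate 1, with the TMM scaling of edgeR. Of the 10 genes 8 had a ratio below 0, against 49.5% of 9995 protein-coding genes whose counts averaged 50 or more. By TPM 6 of the 10 were below 0, and with total counts 7, and the share over all genes was not computed for either. Total counts move the log2 ratio of every gene up by the same amount. The median ratio of the 10 genes was −0.53 by TMM, beside 0.00471 for the 9995 genes. By TPM it was −0.13, where the median of protein-coding genes was 0.24. With 1 library on each side no test between replicates is possible, and the intervals cover counting error only. Casp8 had the highest ratio at 0.39 (95% counting interval 0.30 to 0.49), from 1675 and 1820 expected counts. Of the 9995 protein-coding genes, 12.0% had a ratio at or above that of Casp8. Tradd had the lowest ratio of the 10 at −0.86 (−1.18 to −0.56), and 3.78% of protein-coding genes were at or below it.

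A group of 5 genes lay close together: Birc3 at −0.62 (95% counting interval −0.71 to −0.53), Tnfrsf1b at −0.58 (−0.61 to −0.54), Mlkl at −0.54 (−0.66 to −0.42), and Tnfrsf1a and Cflar at −0.53 each. Ripk1 (0.06), Birc2 (−0.02) and Ripk3 (−0.29) had intervals that held 0. Counting intervals lay wholly below 0 for 6 of the 10 genes and above 0 for 1, against 29.9% and 28.6% of protein-coding genes. None of the 10 lay more than 2-fold apart, against 4.04% of 11761 genes of any type (1.05% higher and 2.98% lower in replicate 2).

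By TPM the ratio of Mlkl was −0.03 and that of Ripk3 turned to 0.31. Their effective lengths differed between replicates 1 and 2, at 1657 and 1373 bases for Mlkl and 1619 and 1264 bases for Ripk3, with the transcripts to which reads were assigned. All 10 macrophage markers also had ratios below 0, at a median of −0.41 and a range of −1.14 to −0.11. Input and depth were lower in replicate 2 as well, and their part in these ratios was not tested.

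**Figure D3:**
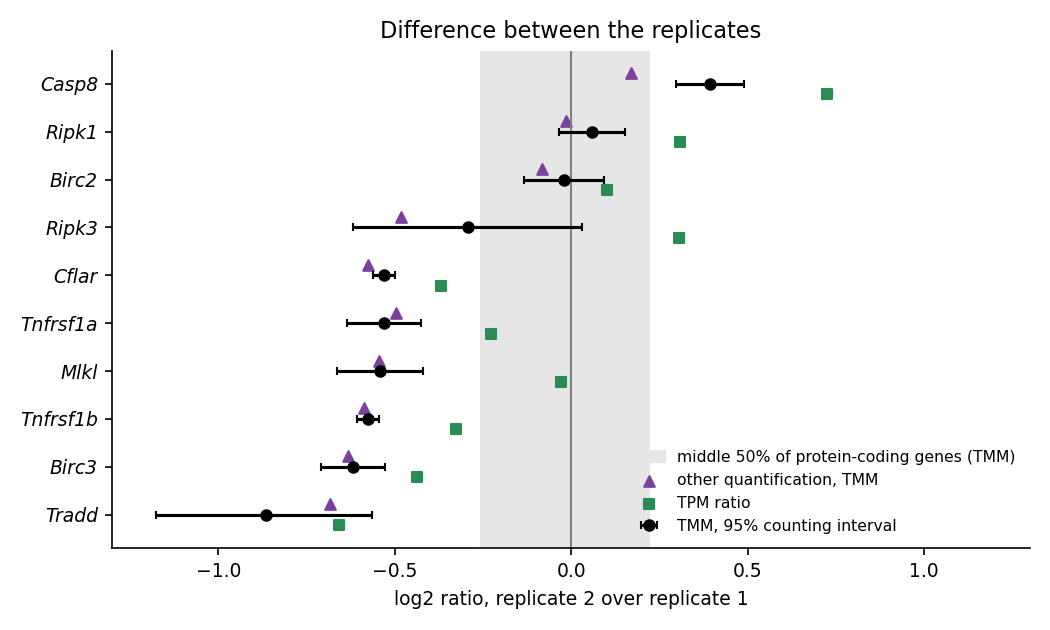
Log2 ratio of replicate 2 over replicate 1 for the 10 genes by TMM-normalised counts with 95% counting intervals (black), by the other quantification (triangles) and by TPM (squares). The grey band is the middle 50% of protein-coding genes by TMM-normalised counts, from −0.26 to 0.22. By these counts the interval of Casp8 lies above it and those of 6 genes lie wholly below it. Casp8 in the other quantification (0.17) and Mlkl (−0.03) and Tnfrsf1a (−0.23) by TPM fall within its limits. TPM ratios of protein-coding genes have a median of 0.24 instead. Relative to that median Mlkl is at −0.27 and Tnfrsf1a at −0.47.

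The share of transcripts annotated as retained introns was above the median gene for Ripk1 (percentile 60.9) and far below it for Tnfrsf1a (percentile 3.15). In nuclear RNA, reads of unspliced RNA also count toward such transcripts, so the share does not separate the 2. Retained-intron transcripts held 30.4% of the Ripk1 TPM in replicate 1 and 35.1% in replicate 2, mostly on Ripk1-202 (29.4% and 29.97%). The median over 5977 detected genes with both a retained-intron and a coding transcript was 26.4% and 27.1%. Birc2 followed at 20.8% and 16.6%, and Cflar at 13.4% and 15.4%. The Cflar share was the single-exon transcript Cflar-213 of 3677 bases, with 2886 and 1801 expected counts and an assignment SD of 0.88 and 0.50. Tradd held 11.8% and 8.19%, Ripk3 5.47% and 13.3%, and Tnfrsf1a 1.75% and 2.87%. Tnfrsf1b, Mlkl, Casp8 and Birc3 have no such annotated transcript, so they have no value. In the other quantification the shares of Ripk1 were 34.9% and 33.8%, those of Tradd 19.6% and 32.7%, and those of Tnfrsf1a 6.32% and 9.23%. Ripk3 was there at 0% in replicate 1 and 24.8% in replicate 2, so the low shares of Tradd and Ripk3 depend on the quantification. The share of Tnfrsf1a was higher there but stayed below that of Ripk1 in both libraries. Cflar (12.2% and 15.6%) and Birc2 (20.7% and 15.6%) changed little. A median over genes was not taken for the other quantification.

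The full-length forms of the kinases also split. Ripk1-201 and Ripk1-203 encode the same 656 codons but differ at both ends. Ripk1-203 begins further downstream, at 34002874 against 34002363, and has the longer 3′ end. Ripk1-201 exceeded it 3.78 times by TPM in replicate 1 and 2.61 times in replicate 2, and 3.11 and 2.81 times in the other quantification. The 486-codon transcript of Ripk3 held 67.5% of the gene TPM in replicate 1 and 24.4% in replicate 2, against 27.0% and 45.97% for transcripts of 422 codons. The other quantification gave 43.5% and 50.1% for the 486-codon form and 37.5% and 25.1% for the shorter one. With at most 140 counts on it the division of Ripk3 between forms was not resolved at this depth.

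**Figure D4:**
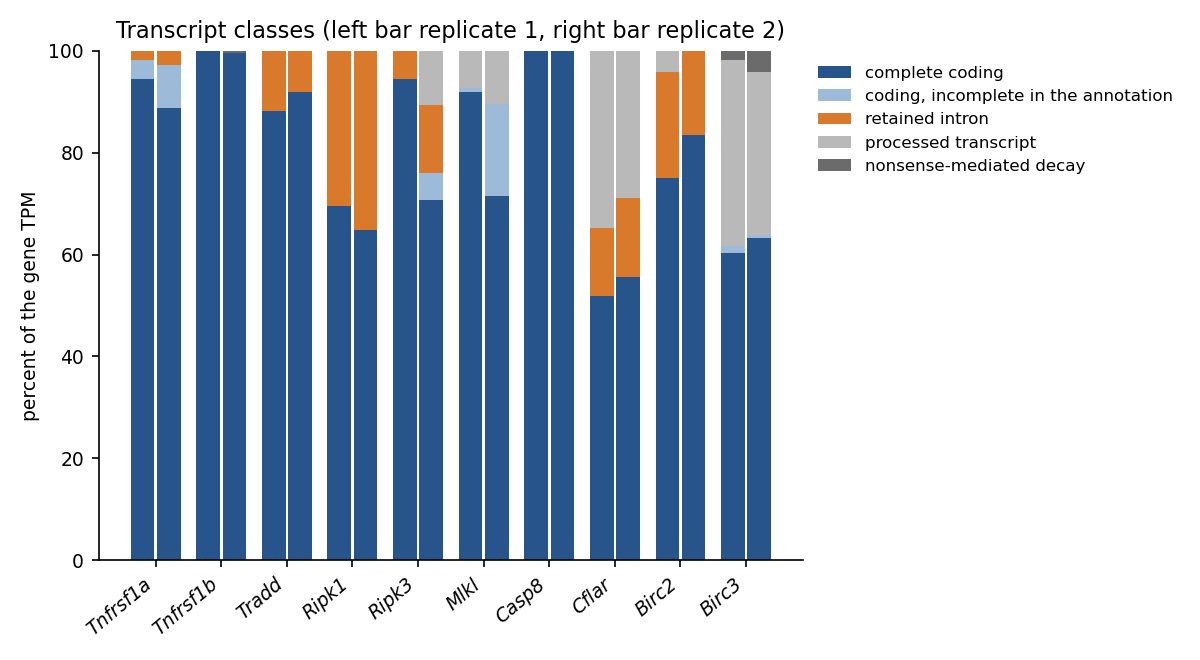
Percent of the gene TPM assigned to each annotated transcript class for the 10 genes, with replicate 1 in the left and replicate 2 in the right bar of each pair. Tnfrsf1b is almost wholly complete coding transcripts, and Casp8 is so by annotation, as all 4 of its transcripts are of this class. Ripk1 has the largest retained-intron share. Noncoding processed transcripts hold much of the TPM of Cflar (34.7% and 28.9%) and Birc3 (36.4% and 32.1%). Of the counts they hold only 5.62% and 4.76% for Cflar and 3.33% and 2.71% for Birc3.

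Of 38 further genes of the pathway, 34 were detected, against 42.9% of protein-coding genes, and the median over all 38 was 11.1 TPM. Of the 4 ligands, Tnf stood at 80.6 and 53.3 TPM in replicates 1 and 2. Tnfsf10 (TRAIL) was at 11.5 and 5.80 TPM, and its log2 ratio of −1.21 was the only one past 2-fold among 34 measured genes. Of 11761 genes of any type, 4.04% were past 2-fold. Lta and Fasl were not detected. Among other death receptors Tnfrsf21 stood at 9.29 ± 2.26 TPM (SD, n = 2) and Fas at 2.90 ± 0.0919, while Tnfrsf10b and Tnfrsf25 were not detected. These ligand and receptor lists were thus detected for 4 of their 8 genes, close to the 42.9% of protein-coding genes.

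All 16 genes listed as adaptors and regulators of the receptor complex, kinases included, were detected at a median of 18.4 TPM. Mapkapk2, a kinase that phosphorylates Ripk1, was highest at 35.8 ± 1.85 TPM (SD, n = 2). Tab2, a subunit that brings the kinase TAK1 to ubiquitin chains, stood at 34.5 ± 8.94. All 6 necroptosis partners were detected. Zbp1, a nucleic acid sensor that engages Ripk3, was the highest of them, with values of 110.2 and 95.9 TPM, and the chaperone Hsp90aa1 followed at 23.3 ± 3.30. Zbp1 thus stood far above Ripk3 in both libraries. The caspase cascade was detected in full, 8 of 8 genes, and its median was 8.77 TPM. Highest was Apaf1, the apoptosome scaffold, at 25.5 ± 1.89, and Bid, which Casp8 cleaves, at 14.2 ± 0.219. Fadd, the adaptor that brings Casp8 to the complex, was at only 1.73 and 1.61 TPM, from a mean of 208 expected counts. Of the 34 measured genes, 23 had a ratio below 0 and 11 above it, at a median of −0.29. Among the 9995 protein-coding genes 49.5% were below 0.

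**Figure D5:**
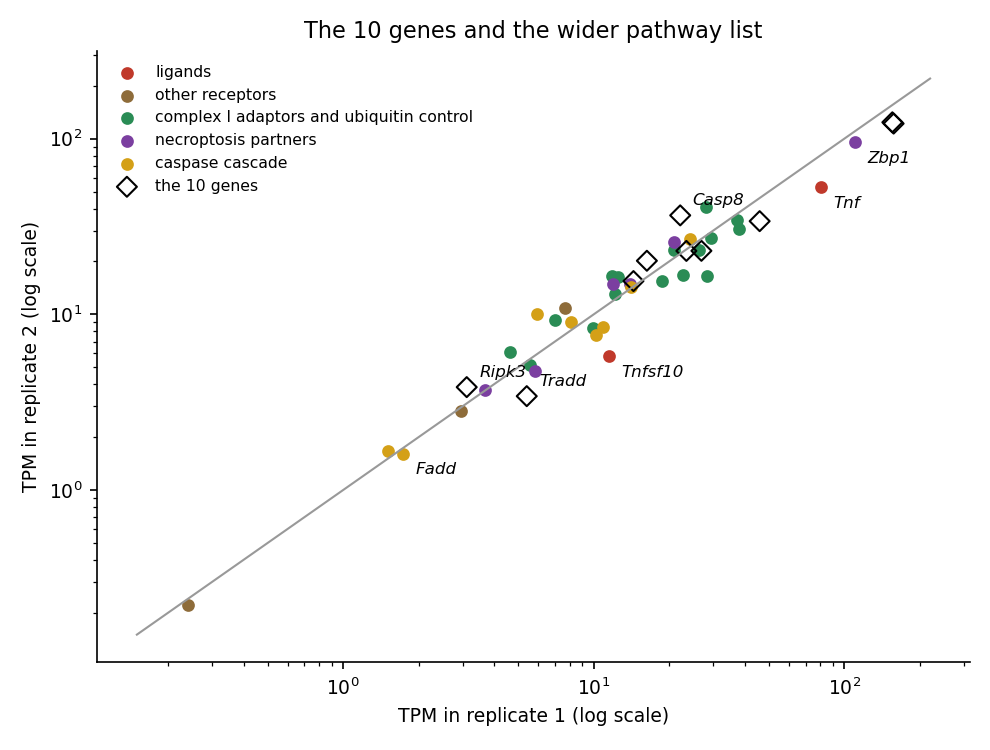
TPM in replicate 2 against replicate 1 (log scales) for the 10 genes (diamonds) and the 35 of 38 further pathway genes above 0.1 TPM in both libraries (points coloured by role), with the line of equality. Casp8 lies above the line, Tnfsf10 and Tradd below it, and Zbp1 and Tnf are near the upper end.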

How the data were processed

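RNA-seq tables of 2 libraries in 1 group were used. Per the file headers, the authors deposited expected counts and TPM per gene and transcript, the percent of the gene TPM on each transcript, and a second table of estimated counts and TPM per transcript. Per the deposited file descriptions, the first tables derive from a transcriptome alignment and the second from reads and an index, on mm10 with GENCODE M21. What aligner, quantifiers, versions and strand setting were used is not given in the sources used here. Without strand, reads from overlapping genes cannot be told apart.

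Entries that name no gene (1.06% and 0.245% of the counts) were left out. Expected counts were rounded, and TMM factors (edgeR 4.0.16), from genes averaging 10 counts or more, were 0.945 and 1.06. Each log2 ratio had 0.5 added to both counts. Counting intervals are exact binomial at 95%. The calculation was tested on simulated data. DESeq2 1.42.0 size factors, total counts, TPM, the other quantification and other filters were alternatives. The members, lists and tests were chosen with earlier results of these data known.

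Named further genes are, per role, the 2 highest, the undetected and those past 2-fold. Fadd and transcripts grouped by start or form were named after their values were seen. With 1 group no comparison of conditions and no likeness of patterns across samples was computed.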

Additional observations from a re-analysis of the deposited data

How the results depend on the processing

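All 10 genes were detected with either replicate alone, in the other quantification and at a TPM of at least 0.5, and 8 at a TPM of at least 5. The median level of the 10 genes, 24.1 TPM, was 22.8 to 23.0 when 1 replicate was left out, 13.9 in the other quantification, 114 with TPM scaled over protein-coding genes only and 78.5 as CPM, which are other scales. The median log2 ratio of −0.53 was −0.37 with total counts, −0.13 by TPM and −0.37 by TPM relative to its median over protein-coding genes, the last an alternative chosen after seeing the data. DESeq2 size factors, no low-count filter, the other quantification, another added count and ratios relative to the gene length class (also chosen later) gave −0.54 to −0.51. Total counts moved the ratios of all genes by the same amount. None of the 10 genes passed 2-fold under any of 6 alternatives. Signs turned for Ripk1 in the other quantification (−0.015), for Ripk3 by TPM (0.31, and 0.068 relative to the median) and for Birc2 with total counts (0.14) and by TPM (0.10). Casp8 was above 0 under all 8 alternatives, between 0.17 and 0.73. The causes were not tested. No paired analysis was possible because the libraries form 1 group. Counts of Ripk3 and Tradd limit what their transcripts show.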

Other observations

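Several annotated genes overlap the 10 described. Gm37760, a locus awaiting experimental support (chromosome 1, 58797783 to 58801623), lies on the strand of Casp8 between its upstream and downstream starts and held 728 expected counts in replicate 1 and 474 in replicate 2. Its log2 ratio of −0.34 (−0.28 in the other quantification) had the sign of the upstream Casp8 transcripts, and reads of unspliced Casp8 RNA cannot be told apart from it. Within Ripk1 the pseudogene Gm17083, on the opposite strand, held 317 and 296 counts, and Gm17084, on the same strand, held 54 and 26. Serpinb6a overlaps the first 432 bases of Ripk1 on the opposite strand, with 1571 and 1508 counts. Gm45712 overlaps Mlkl on the opposite strand with 12 and 7 counts.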
